A study of Mus musculus with 6 samples.

Results

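Matricellular proteins are secreted into the extracellular matrix, where they act on cells and on growth factors more than as load-bearing fibres. The 10 genes described here were taken by name: periostin (Postn), the tenascins Tnc and Tnxb, Sparc and its relative Sparcl1, osteopontin (Spp1), and 4 genes of the CCN family, Ctgf, Cyr61, Nov and Wisp2. All 10 were found in the table of normalised counts, among 24062 genes. All 10 were also in the smaller table of CPM, among 4939 genes. CPM are read counts scaled to an adjusted library size, which is not the read total. RNA was sequenced from freshly sorted cells of adult C57BL/6 mouse hind-limb muscle. Labelled cells of the Twist2 line, genotype Tw2-CreERT2/+;R26-tdTO+, are called Tw2pos here (2 libraries), and unlabelled cells of that genotype Tw2neg (2 libraries). Labelled and unlabelled cells of the genotype Pax7-CreERT2/+;R26-tdTO+ are called Pax7pos (1 library) and Pax7neg (1 library). All mice, including those that gave the unlabelled cells, carried a tamoxifen-dependent Cre and the tdTomato reporter and received 3 tamoxifen treatments, with muscle taken 10 days after. The labels do not say that the 2 Twist2 libraries of a group came from separate animals, so the p-values here cover the spread of these samples alone, which may be technical.

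Many matricellular proteins bind integrins and collagen, and their genes are known to be induced by TGF-beta, by mechanical load and in wound repair. In muscle they are known mainly from fibroblasts, from tendon and the muscle-tendon junction, and from regenerating tissue. Twist2 encodes a transcription factor of mesenchymal cells, and Pax7 encodes a transcription factor of satellite cells, from which muscle fibres regenerate. The groups allow labelled cells to be set against unlabelled cells within each line, and the 2 lines to be set against each other.

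The promoters of Postn, Cyr61 and Spp1 are shown because these genes had the most different patterns over the 4 groups: Postn differed most between the lines, Cyr61 least, and Spp1 differed between the lines without a difference between the Twist2 fractions that passed the test. Each run is the 250 bases before a RefSeq transcription start, 5′ to 3′ on the strand of the gene, in GRCm38.p6. Capitals mark the TATA box letters TATAAA on the strand of the gene and the TEAD motif GGAATG on either strand (CATTCC on the other strand).
Postn, chr3:54360857-54361106, plus strand: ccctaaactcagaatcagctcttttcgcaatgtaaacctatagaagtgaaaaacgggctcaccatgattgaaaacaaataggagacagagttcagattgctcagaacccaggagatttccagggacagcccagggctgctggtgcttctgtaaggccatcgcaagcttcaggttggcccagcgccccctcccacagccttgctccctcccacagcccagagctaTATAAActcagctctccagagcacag
Cyr61, chr3:145649986-145650235, minus strand: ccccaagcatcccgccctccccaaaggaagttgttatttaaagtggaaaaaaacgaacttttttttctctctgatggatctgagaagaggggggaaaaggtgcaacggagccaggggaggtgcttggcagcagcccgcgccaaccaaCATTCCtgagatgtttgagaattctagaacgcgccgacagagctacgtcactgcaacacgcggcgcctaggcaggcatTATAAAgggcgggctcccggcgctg
Spp1, chr5:104434861-104435110, plus strand: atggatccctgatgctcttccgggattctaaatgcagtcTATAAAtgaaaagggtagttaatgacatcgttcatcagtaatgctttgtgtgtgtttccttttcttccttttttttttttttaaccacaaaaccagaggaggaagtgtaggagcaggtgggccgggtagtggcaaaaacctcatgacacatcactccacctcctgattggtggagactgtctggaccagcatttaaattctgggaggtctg
The Postn run held TATAAA beginning 26 bases before the start, and the Cyr61 run held it 25 bases before the start, with CATTCC beginning 103 bases before the start. In the Spp1 run TATAAA began 211 bases before the start. RefSeq promoters were matched for 6 of the 10 genes. That of Sparc, chromosome 11, 55420081 to 55420330 on the minus strand, lies inside the GENCODE gene, which begins at 55423183 on that strand. Of the 6, 4 held TATAAA, against 7.59% of 32851 promoters of this length. Of those 4, only Postn and Cyr61 held it close to the start, and in Tnc it began 126 bases before the start. The TEAD motif was in 1 of the 6, against 12.6% of all promoters, the AP-1 motif TGANTCA in 1 of the 6, that of Tnxb, against 6.75%, and the E-box CANNTG, the general letters bound by basic helix-loop-helix factors, in 4 of the 6, against 66.2%. The CArG box of serum response factor was searched on both strands and was in 0 of the 6, against 1.47% of all promoters. AP-1 and E-box letters were searched on both strands, and no match overlapped another. These matches are descriptions of the letters and not of binding.

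The Twist2 libraries held between 10902318 and 13205751 reads in the normalised count table. The CPM table is a selection by the authors. Each listed gene reaches 10 CPM in 3 libraries or more. It also has a log2 fold change of size 1 or more in the authors' deposited columns. The table gives each Twist2 group as a mean, and CPM of single Twist2 libraries were rebuilt from those means and the read counts. The reads in the table numbered 6016469 in Pax7pos and 7565797 in Pax7neg. Satellite cell markers, of which 9 of 12 are in that table, summed to 7769 CPM in Pax7pos, against 591 CPM in Pax7neg. The 12 markers of fibro-adipogenic cells, which are connective tissue progenitors between the fibres, summed to 64301 and 80109 CPM in Tw2pos, 18392 and 14098 CPM in Tw2neg, 2314 CPM in Pax7pos but 37211 CPM in Pax7neg. The 9 tendon cell markers summed to 33445 and 29781 CPM in Tw2pos, 5805 and 2487 CPM in Tw2neg, 576 CPM in Pax7pos and 8937 CPM in Pax7neg.

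In the Twist2 line, 9 of the 10 matricellular genes were higher in labelled than in unlabelled cells, and in those 9 both Tw2pos libraries lay above both Tw2neg libraries. Postn rose most, by 3.11 on the log2 scale, and Wisp2, Ctgf, Sparc and Tnc rose by between 2.45 and 2.88. Spp1 did not pass the test. The test was limma on log2(normalised count + 1), run on the 14155 genes whose mean reached 10, with Benjamini-Hochberg adjustment and a threshold of 0.05. Of all genes tested, 38.6% passed in either direction and 18.7% as higher, and in 37.1% both Tw2pos libraries lay above both Tw2neg libraries. The 10 genes had a median log2 fold change of 2.25, against −0.04 for all genes tested. In bulk samples such as these, fewer cells of a type and less RNA per cell cannot be told apart. Postn, Tnc, Tnxb, Ctgf, Nov and Wisp2 passed under each setting tried that kept both libraries of each Twist2 group. Dropping Tw2pos replicate 1 or 2 leaves 1 library in that group. Calls then became fewer among all genes tested as well as among the 10, so a call lost there does not set a gene apart. For the 9 genes the rise was still 1.41 (Cyr61) to 3.17 (Postn) without replicate 1. It was 1.46 (Sparcl1) to 3.04 (Postn) without replicate 2.

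**Figure D1:**
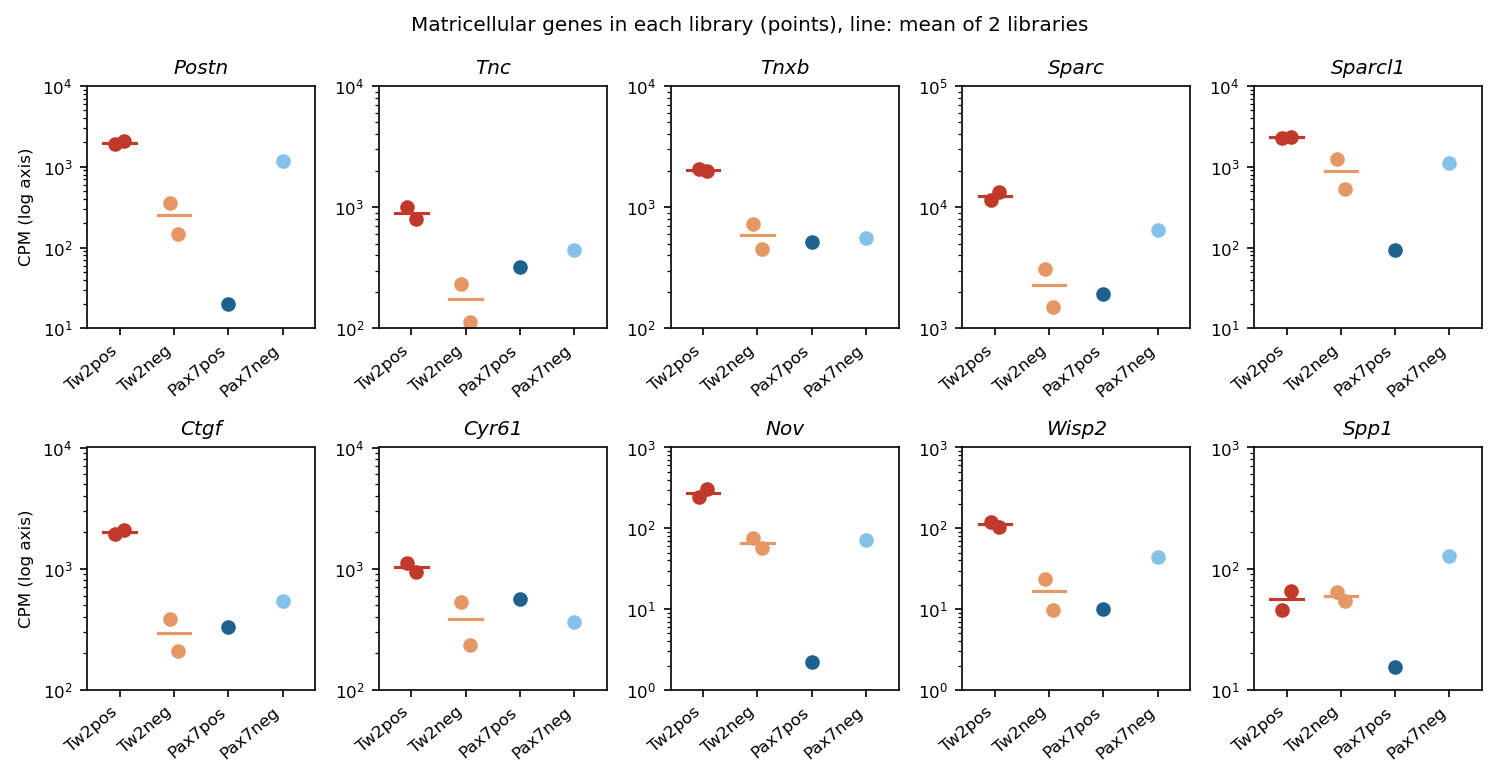
CPM of the 10 matricellular genes in each of the 6 libraries (points, log axis; the axis range differs between panels), with a line at the mean of the 2 libraries of a Twist2 group. For 9 genes both Tw2pos points lie above all other points, and for Spp1 the Pax7neg point is the highest at 127 CPM and the Pax7pos point the lowest at 15.4 CPM.

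Postn encodes periostin, a protein of collagen-rich tissues that binds integrins and takes part in collagen crosslinking (GRCm38 chromosome 3, 54361109 to 54391037, plus strand). It had 23580 and 25781 normalised counts in the Tw2pos libraries, against 4396 and 1861 in the Tw2neg libraries. The groups do not overlap, and the Tw2neg libraries differed from each other by 2.36-fold. The log2 fold change was 3.11 (SE 0.43 and adjusted p = 0.00396, limma).

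Of the tenascins, large glycoproteins with fibronectin-like repeats, Tnc is known from tendon, the muscle-tendon junction and wounds, and Tnxb from the sheets of loose connective tissue. Tnc (chromosome 4, 63959785 to 64047015, minus strand) had 12503 and 9827 normalised counts in Tw2pos, against 2918 and 1406 in Tw2neg, with a log2 fold change of 2.45 (SE 0.38 and adjusted p = 0.00545, limma). Tnxb (chromosome 17, 34670535 to 34719815, plus strand) had 25724 and 24391 normalised counts in Tw2pos, against 9039 and 5666 in Tw2neg, with a log2 fold change of 1.81 (SE 0.34 and adjusted p = 0.0105, limma). Neither tenascin had overlapping groups. The call for Tnxb was lost without Tw2pos replicate 1 (limma adjusted p = 0.0522) and without Tw2pos replicate 2 (0.0542).

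Sparc encodes a collagen-binding calcium glycoprotein needed for normal collagen fibrils, and was the most abundant of the 10 genes. It was the 7th most abundant gene by reads in both Tw2pos libraries and the 10th and 27th in the Tw2neg libraries. Sparc (chromosome 11, 55394500 to 55423183, minus strand) had 140835 and 166663 normalised counts in Tw2pos, against 38385 and 18832 in Tw2neg, with a log2 fold change of 2.51 (SE 0.63 and adjusted p = 0.0258, limma). Sparcl1, which encodes hevin, a relative of Sparc also known from blood vessels (chromosome 5, 104079111 to 104113733, minus strand), had 27952 and 29156 normalised counts in Tw2pos, against 15468 and 6693 in Tw2neg. Its log2 fold change was 1.49 (SE 0.46 and adjusted p = 0.0484, limma), the smallest of the 9 that passed. The groups of both genes do not overlap. Both calls held without Tw2neg replicate 1 (limma adjusted p = 0.0255 for Sparc and 0.00661 for Sparcl1) but not when any 1 of the other 3 libraries was left out. The 12 endothelial markers summed to 1230 and 958 CPM in Tw2pos, against 4690 and 1757 CPM in Tw2neg, with 9 lower in Tw2pos and 3 not passing, and the part of endothelial RNA in the Sparcl1 values was not tested. Sparc did not pass without Tw2pos replicate 1 (limma adjusted p = 0.0898), without Tw2pos replicate 2 (0.140) or without Tw2neg replicate 2 (0.0903), nor after quantile normalisation, where its log2 fold change was 1.01 (0.179). Sparcl1 did not pass when any 1 of those 3 libraries was left out (limma adjusted p = 0.0822 to 0.180), nor with edgeR (0.0640), library total scaling (0.0715), quantile normalisation (0.70 on the log2 scale, 0.241), no filter (0.0804) or no variance trend (0.0596).

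The CCN proteins are secreted modulators of growth factor and integrin signalling, and Ctgf and Cyr61 are well-known target genes of Yap and Taz with their Tead partners. Ctgf, now named Ccn2 (chromosome 10, 24595442 to 24598683, plus strand), had 23709 and 25977 normalised counts in Tw2pos, against 4743 and 2623 in Tw2neg, with a log2 fold change of 2.81 (SE 0.35 and adjusted p = 0.00296, limma). Cyr61, now Ccn1 (chromosome 3, 145646976 to 145649981, minus strand), had 13812 and 11703 normalised counts in Tw2pos, against 6562 and 2955 in Tw2neg, with a log2 fold change of 1.53 (SE 0.41 and adjusted p = 0.0306, limma). Both genes had their lowest value in Tw2neg replicate 2. The Cyr61 call ended without Tw2pos replicate 1 (limma adjusted p = 0.107) or 2 (0.0737), after quantile normalisation (0.99 on the log2 scale, 0.132), with no filter (0.0595) and with no variance trend (0.0529).

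Nov and Wisp2 are the less studied members of the family in muscle, and Wisp2 is known from fibroblasts and preadipocytes. Nov, now Ccn3 (chromosome 15, 54745702 to 54754039, plus strand), had 3052 and 3790 normalised counts in Tw2pos, against 943 and 716 in Tw2neg, with a log2 fold change of 2.05 (SE 0.22 and adjusted p = 0.00203, limma). Wisp2, now Ccn5 (chromosome 2, 163820861 to 163833146, plus strand), had 1488 and 1297 normalised counts in Tw2pos, against 293 and 121 in Tw2neg, with a log2 fold change of 2.88 (SE 0.41 and adjusted p = 0.00427, limma). Nov had the smallest SE of the 10 genes, and neither gene had overlapping groups.

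Spp1 encodes osteopontin, an acidic glycoprotein that binds integrins and Cd44 and is made by macrophages and in regenerating muscle. Spp1 (chromosome 5, 104435118 to 104441050, plus strand) had 566 and 813 normalised counts in Tw2pos, against 806 and 681 in Tw2neg. The groups overlap, and the log2 fold change of −0.13 (SE 0.23 and adjusted p = 0.694, limma) did not pass. Without Tw2pos replicate 1 it was 0.13 (limma adjusted p = 0.834). Macrophage and monocyte markers, of which 14 of 15 are in the normalised count table, summed to 3656 and 4932 normalised counts in Tw2pos, against 40141 and 43746 in Tw2neg; none was at 0 in a Tw2pos library, 13 were lower in Tw2pos and 1 did not pass. The part of macrophage RNA in the Spp1 values was not tested. Whether reads were counted by strand is not stated in the labels, and Tnc, Sparcl1, Ctgf and Tnxb overlap genes on the opposite strand and Spp1 one on the same strand, so their reads can hold those of the overlapping gene.

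All 10 genes were higher in Tw2neg replicate 1 than in replicate 2, with a median log2 difference of 1.04, while 49.6% of all genes tested were higher in replicate 1 and their median difference was −0.01. Wisp2 differed most, by 2.42-fold, and Spp1 least, by 1.18-fold. In the same pair, replicate 1 was higher for 12 of 12 endothelial markers (median log2 difference 1.46) and 12 of 12 pericyte and smooth muscle markers (1.46). It was also higher for 9 of 9 tendon cell markers (1.37), 10 of 10 Schwann cell markers (1.17) and 11 of 12 satellite cell markers (0.91). The same held for 11 of 12 fibro-adipogenic markers (0.45) and 10 of 14 macrophage markers (0.26). The part of these cell types in the difference was not tested. Between the Tw2pos libraries, 4 of the 10 genes were higher in replicate 1.

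The labelled cells of the 2 lines were then compared with each other. Tw2pos was higher for 9 of the 10 genes, and Postn and Nov had the largest differences, with 192 reads of Postn and 21 reads of Nov in Pax7pos. The Cyr61 difference did not pass. The test was limma on log2(CPM + 1) with all 6 libraries and 4790 genes, and since Pax7pos is a single library its spread was taken from the Twist2 groups. Of the genes tested in this selected table, 59.6% passed in either direction and 33.9% as higher in Tw2pos, and the median log2 fold change of the 10 genes was 2.64, against 0.41 for all genes tested. Quantile normalisation moved that median of all genes to −0.16. Of the 10 genes 7 then passed, and of all 4790 genes 1847 passed, 852 of them as higher.

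Postn had 1905 and 2083 CPM in the Tw2pos libraries, against 20.1 CPM in Pax7pos (95% Poisson interval 17.3 to 23.1, which covers counting error only). The log2 fold change was 6.56 (SE 0.51 and adjusted p = 6.37e-05, limma). Nov had 247 and 306 CPM in Tw2pos, against 2.19 CPM in Pax7pos (1.36 to 3.35), a log2 fold change of 6.43 (SE 0.34 and adjusted p = 2.52e-05, limma). For both, the Pax7pos value was the lowest of the 6 libraries. Sparcl1 followed, with 2258 and 2356 CPM in Tw2pos, against 93.5 CPM in Pax7pos, a log2 fold change of 4.61 (SE 0.53 and adjusted p = 0.000377, limma).

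Wisp2 had 120 and 105 CPM in Tw2pos, against 10.03 CPM from 96 reads in Pax7pos, a log2 fold change of 3.36 (SE 0.49 and adjusted p = 0.00114, limma). Sparc had 11376 and 13465 CPM in Tw2pos, against 1910 CPM in Pax7pos (log2 fold change 2.70, SE 0.63, limma adjusted p = 0.00785). Ctgf had 1915 and 2099 CPM in Tw2pos, against 333 CPM in Pax7pos (log2 fold change 2.58, SE 0.44, limma adjusted p = 0.00226). These 3 genes were thus well above the Pax7pos value in both Tw2pos libraries, and in Pax7pos they lay within or close to the range of the Tw2neg libraries, which was 9.65 to 23.5 CPM for Wisp2, 1506 to 3083 CPM for Sparc and 210 to 381 CPM for Ctgf.

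The tenascins showed smaller differences between the labelled fractions. Tnxb had 2078 and 1971 CPM in Tw2pos, against 519 CPM in Pax7pos (log2 fold change 1.96, SE 0.43, limma adjusted p = 0.00611). Tnc had 1010 and 794 CPM in Tw2pos, against 322 CPM in Pax7pos (log2 fold change 1.47, SE 0.48, limma adjusted p = 0.0289), and its call ended without Tw2pos replicate 1 (1.30, limma adjusted p = 0.0789) and after quantile normalisation (0.0709). In contrast to the other genes that passed, Tnc was higher in Pax7pos than in both Tw2neg libraries, which had 234 and 112 CPM.

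Spp1 and Cyr61 had the opposite calls here and between the Twist2 fractions. Spp1 had 45.7 and 65.7 CPM in Tw2pos, against 15.4 CPM in Pax7pos (log2 fold change 1.77, SE 0.35, limma adjusted p = 0.0041), so it passed here although it did not between the Twist2 fractions; after quantile normalisation the log2 fold change was 1.11 (limma adjusted p = 0.0515). Cyr61 had 1116 and 945 CPM in Tw2pos, against 559 CPM in Pax7pos (log2 fold change 0.88, SE 0.50, limma adjusted p = 0.163). With either Tw2neg library left out, so that the spread came from the Tw2pos pair, Cyr61 passed at the same fold change (limma adjusted p = 0.0131 and 0.0136).

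**Figure D2:**
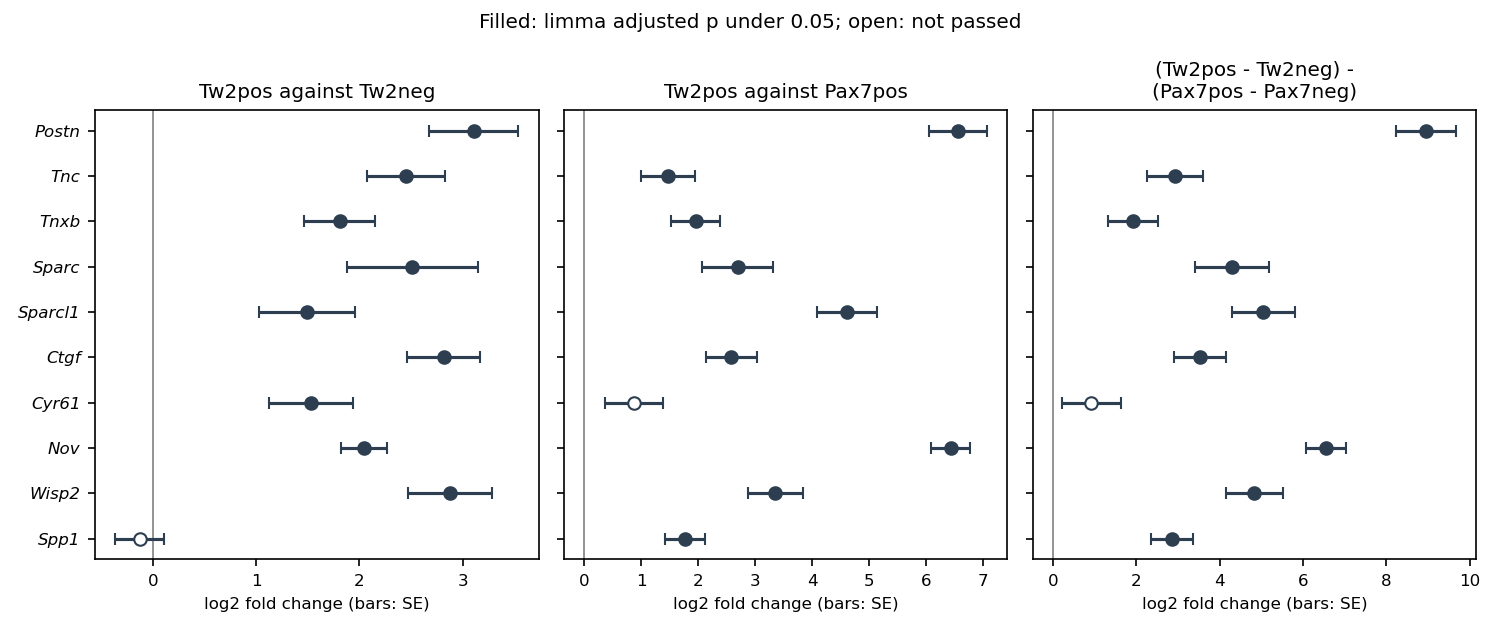
Log2 fold changes of the 10 genes (points, bars are 1 SE from limma) for Tw2pos against Tw2neg, Tw2pos against Pax7pos, and the difference between the lines in labelled against unlabelled cells; filled points passed at an adjusted p under 0.05. The open points are Spp1 in the left panel, at −0.13, and Cyr61 in the other panels, at 0.88 and 0.92.

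In the Pax7 line the labelled cells had the lower value for 9 of the 10 genes, with 1 library a group and therefore no test. In the table as a whole, 57.7% of 4939 genes were lower in Pax7pos, and the median log2 difference of CPM plus 10 was −1.60 for the 10 genes, against −0.43 for all genes. Postn was at 20.1 CPM in Pax7pos, against 1195 CPM in Pax7neg, and Nov was at 2.19 CPM in Pax7pos, against 71.9 CPM in Pax7neg. Sparcl1 stood at 93.5 CPM in Pax7pos, against 1106 CPM in Pax7neg, and Spp1 at 15.4 CPM in Pax7pos, against 127 CPM in Pax7neg. These 4 genes had a log2 difference of CPM plus 10 of −2 or below (Postn −5.33, Nov −2.75, Sparcl1 −3.43 and Spp1 −2.44), as did 14.6% of the genes of the table. With CPM plus 1 the count was 5, and at a size of 1 in place of 2 it was 6. The share of all genes at these 2 settings was not computed, so these counts cannot be set against it. Sparc had 1910 CPM in Pax7pos, against 6532 CPM in Pax7neg, and Wisp2 10.03 CPM in Pax7pos, against 43.95 CPM in Pax7neg. Tnxb was the closest pair, with 519 CPM in Pax7pos (95% Poisson interval 504 to 533), against 559 CPM in Pax7neg (546 to 572). Tnc had 322 CPM in Pax7pos, against 447 CPM in Pax7neg, and Ctgf 333 CPM in Pax7pos, against 544 CPM in Pax7neg.

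Cyr61 alone of the 10 was higher in Pax7pos, with 559 CPM (544 to 574), against 364 CPM in Pax7neg (354 to 375). Cyr61 is also known as an immediate-early gene, and tissue digestion can induce such genes. The 8 of 21 immediate-early genes in the CPM table summed to 15598 CPM in Pax7pos, against 7463 CPM in Pax7neg. Egr1 had 8267 CPM in Pax7pos, against 1561 CPM in Pax7neg, and Klf4 755 CPM, against 484 CPM. Zfp36 was close, with 2911 CPM in Pax7pos, against 2695 CPM in Pax7neg. Klf2 went the other way, with 33.7 CPM in Pax7pos, against 289 CPM in Pax7neg. In the Twist2 line the same sums were 16342 and 15849 CPM in Tw2pos, against 9920 and 6786 CPM in Tw2neg, and of all 21 genes there 3 rose, 1 fell and 17 did not pass. The part of digestion in the Cyr61 and Ctgf values was not tested.

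The difference between the lines, that is the labelled against unlabelled difference of the Twist2 line minus that of the Pax7 line, was tested in the same 6-library fit. It passed as higher for 9 of the 10 genes, where 36.2% of all 4790 genes passed in either direction and 23.4% as higher. The median was 3.91 for the 10 genes and 0.37 for all genes tested, and quantile normalisation moved that of all genes to −0.25. Postn had the largest value at 8.94 (SE 0.72 and adjusted p = 0.000154, limma), since it was high in Tw2pos over Tw2neg and low in Pax7pos against Pax7neg. Nov followed at 6.56 (SE 0.48 and adjusted p = 0.000112, limma). Cyr61 did not pass, at 0.92 (SE 0.71 and adjusted p = 0.330, limma). Tnxb passed at 1.92 (SE 0.60 and adjusted p = 0.0401, limma), and its call ended without Tw2pos replicate 1 (0.109) or 2 (0.0988) and after quantile normalisation (1.38, limma adjusted p = 0.103). Cyr61 passed without Tw2neg replicate 1 (limma adjusted p = 0.0105).

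**Figure D3:**
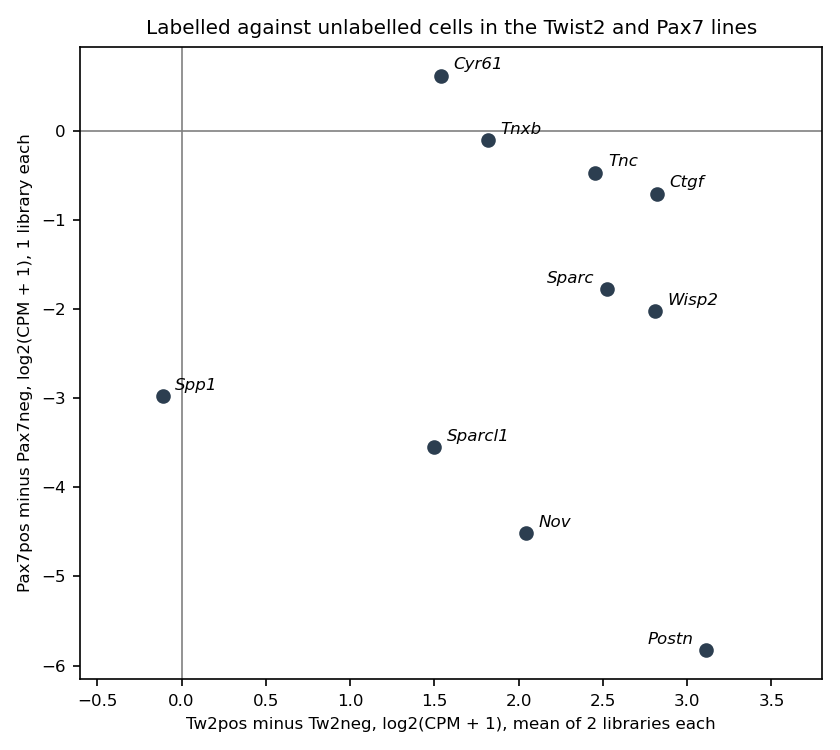
Labelled minus unlabelled difference of log2(CPM + 1) for each gene in the Twist2 line (x axis, means of 2 libraries each) and the Pax7 line (y axis, 1 library each). Points right of the vertical line are higher in Tw2pos than in Tw2neg and points below the horizontal line are lower in Pax7pos than in Pax7neg: Cyr61 lies above the horizontal line at 0.62, Spp1 left of the vertical line at −0.11, and Postn is farthest down at −5.83.

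Between the unlabelled fractions of the 2 lines, limma called 0 of the 10 genes, and 0.23% of all 4790 genes. At an unadjusted p under 0.05 the count was 5 of 10 genes, and 749 of all genes; count tools were not run on this comparison. Tw2neg had the lower mean of log2 values for 9 of the 10 genes, with a median log2 fold change of −1.02, against −0.07 for all genes tested. Postn had 353 and 149 CPM in Tw2neg, against 1195 CPM in Pax7neg (log2 fold change −2.38, SE 0.51, limma adjusted p = 0.116). Sparc had 3083 and 1506 CPM in Tw2neg, against 6532 CPM in Pax7neg (−1.60, SE 0.63, limma adjusted p = 0.278). Spp1 had 64.7 and 54.5 CPM in Tw2neg, against 127 CPM in Pax7neg (−1.09, SE 0.35, limma adjusted p = 0.200).

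In 6 of the 10 genes both Tw2neg libraries lay below the Pax7neg library, as in 37.3% of the 4939 genes of the table. The fold changes depended on which Tw2neg library was kept. With a Tw2neg library left out, the spread in the test came from the Tw2pos pair alone. The log2 fold change of Postn was −3.00 without Tw2neg replicate 1 and −1.76 without Tw2neg replicate 2, and that of Wisp2 −2.08 and −0.88. Sparcl1 was at −1.05 and 0.17, and Cyr61 at −0.62 and 0.53. Leaving out a Tw2pos library cannot move these fold changes, which come from the unlabelled libraries alone, and changes only the spread. How many genes were called with 1 library left out, of the 10 and of all genes, is given below with the other settings. The 12 fibro-adipogenic markers were also lower in sum, with 18392 and 14098 CPM in Tw2neg, against 37211 CPM in Pax7neg, and the part of these cells in the difference was not tested.

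Levels between genes were compared as CPM per kb of the longest protein-coding transcript of GENCODE M21. Sparc was the highest in every group, with 5400 ± 642 CPM per kb in Tw2pos and 997 ± 485 in Tw2neg (SD, n = 2 each), 830 in Pax7pos and 2840 in Pax7neg. In Tw2pos, Sparcl1 (836 ± 25.1), Ctgf (806 ± 52.1), Postn (622 ± 39.3) and Cyr61 (510 ± 59.6) came next (SD, n = 2 each), and Sparcl1 and Ctgf did not differ beyond their spread. Tnxb had 166 ± 6.21, Tnc 127 ± 21.5, Nov 96.3 ± 14.7, Wisp2 65.4 ± 6.35 and Spp1 37.0 ± 9.36 CPM per kb in Tw2pos. The order changed most in Pax7pos, where Cyr61 at 277 and Ctgf at 134 CPM per kb came next after Sparc, while Sparcl1 was at 33.9, Postn at 6.26 and Nov at 0.765 CPM per kb.

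**Figure D4:**
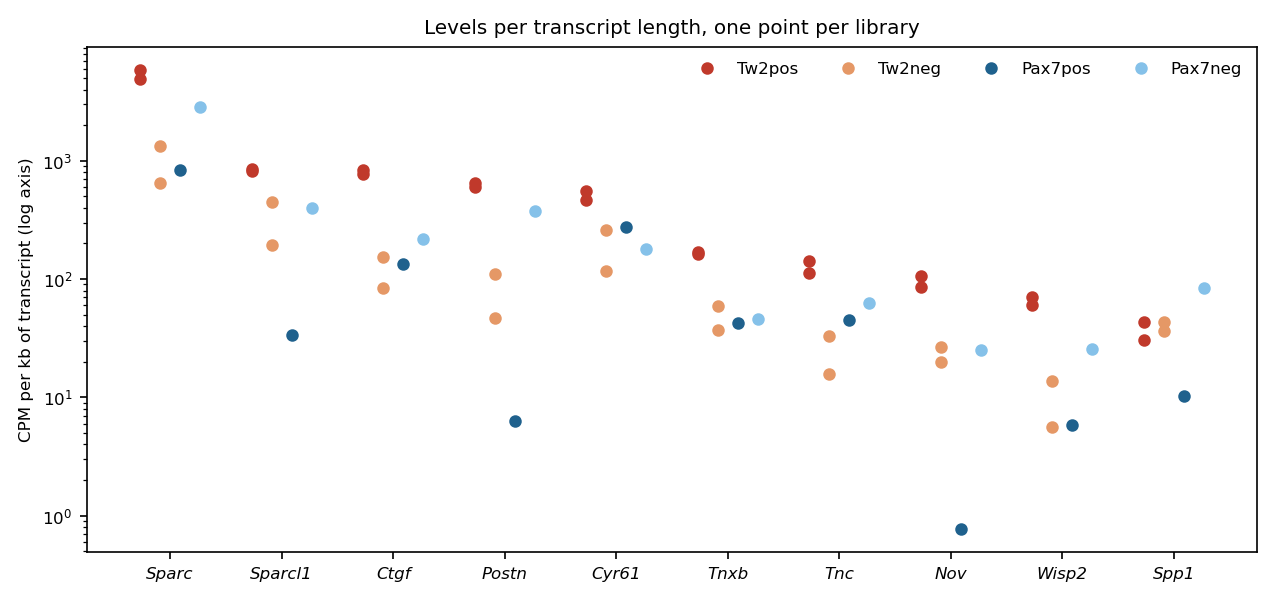
CPM per kb of transcript (log axis) for the 10 genes, 1 point per library, ordered by their Tw2pos mean. Sparc is the highest gene in every group, and the lowest point is that of Nov in Pax7pos (0.765 CPM per kb).

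The genes whose pattern over the 6 libraries was most like each of the 10 were found by Pearson r of log2(CPM + 1) among 2185 other genes averaging 50 CPM or more. All 6 libraries are shared between the genes compared, so these values are descriptions. Postn was most like the serine protease Prss23 (r = 0.999) and the secreted matrix protein Ccdc80 (0.997). Nov was most like the adhesion molecule Cadm3 (0.999) and the guidance ligand Slit3 (0.998), and Sparc like F-spondin, Spon1 (0.998), and Rcn3 (0.997). Tnc was most like the collagen chain Col5a1 (0.988) and Gstm1 (0.985), and Tnxb like the endocytic receptor Lrp1 (0.998) and Sh3pxd2a (0.998). Ctgf was most like the lysophosphatidic acid receptor Lpar1 (0.998), Wisp2 like Olfml3 (0.996) and Igf1 (0.996), Sparcl1 like the alcohol dehydrogenase Adh1 (0.998), Cyr61 like Clstn1 (0.9901) and Spp1 like the dipeptidase Cndp2 (0.988).

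Collagens and other fibrillar partners of these proteins were set beside them. Of 18 partner genes 16 rose in Tw2pos against Tw2neg and 2 did not pass, with a median log2 fold change of 2.19, and 17 of 18 were higher in Tw2pos than in Pax7pos. Col1a1, the first chain of collagen I, had 301492 and 350942 normalised counts in Tw2pos, against 67565 and 31243 in Tw2neg (log2 fold change 2.82, SE 0.84, limma adjusted p = 0.0416). Col1a2 and Col3a1 had log2 fold changes of 2.75 and 2.22 and did not pass (limma adjusted p = 0.0628 and 0.0829). Of 22 other matricellular and CCN genes tested, 16 rose, 3 fell and 3 did not pass, with a median of 1.90. Thbs4, a tendon thrombospondin, had a log2 fold change of 3.07 (SE 0.69) and Spock3, a proteoglycan with a Sparc-like domain, one of 3.29 (SE 0.36). Ibsp, bone sialoprotein and a relative of Spp1, fell, with 68.8 and 44.6 normalised counts in Tw2pos, against 548 and 407 in Tw2neg (log2 fold change −3.07, SE 0.31, limma adjusted p = 0.00165). Thbs1 had 34936 and 34515 normalised counts in Tw2pos, against 31860 and 32879 in Tw2neg, and did not pass.

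Receptors of matricellular proteins went both ways. Of 22 tested, 9 rose, 6 fell and 7 did not pass in Tw2pos against Tw2neg, with a median log2 fold change of 0.18. Itgb5, an integrin chain that pairs with the alpha V chain, had the largest rise, with 3413 and 3516 normalised counts in Tw2pos, against 1258 and 727 in Tw2neg (log2 fold change 1.86, SE 0.28), and Lrp1 and Itgb1 rose by 1.85 and 1.20. Itgb2, the integrin chain of leukocytes, fell, with 63.7 and 118 normalised counts in Tw2pos, against 2758 and 3450 in Tw2neg (log2 fold change −5.13, SE 0.32). Syndecan 4, Sdc4, did not pass there (0.04) and was lower in Tw2pos than in Pax7pos (−1.83, SE 0.41, limma adjusted p = 0.00692).

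Genes of the TGF-beta, Yap and serum response pathways, which are known to feed into Ctgf, Cyr61 and Tnc, were described in the same way. In Tw2pos against Tw2neg 9 of 20 rose, 3 fell and 8 did not pass, with a median log2 fold change of 0.44. Tead1, a DNA-binding partner of Yap, had the largest rise, with 1590 and 1674 normalised counts in Tw2pos, against 690 and 347 in Tw2neg. Its log2 fold change was 1.74 (SE 0.33), and Wwtr1, the gene for Taz, rose by 1.38 (SE 0.30). Tead4, of the same family as Tead1, had the largest fall, with 49.7 and 22.9 normalised counts in Tw2pos, against 159 and 85.6 in Tw2neg. Its log2 fold change was −1.76 (SE 0.50 and adjusted p = 0.0362, limma). Amotl2 did not pass, at 0.89 (limma adjusted p = 0.11). Of the 11 in the CPM table, 1 was higher, 5 were lower and 5 did not pass in Tw2pos against Pax7pos, with a median of −0.65; Tead1 was lower in Tw2pos (−1.26, SE 0.42, limma adjusted p = 0.034), where Pax7pos had 317 CPM, against 51.7 CPM in Pax7neg.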

How the data were processed

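RNA-seq of 6 libraries from sorted mouse muscle cells was used. Per the submitters' processing notes, TopHat2 2.0.0, DESeq2 1.6.3 and the build GRCm38/mm10 were named, and the sources used here do not give the read counter. The deposited signal values for the Twist2 libraries are gene counts divided by size factors. The authors also deposited CPM for a selected set of genes, scaled to library sizes that differ from the read totals. The sizes fitted here were 9710688 and 10262454 in Tw2pos, against 10902318 and 12425426 reads. In Tw2neg they were 15312683 and 15643678, against 13205751 and 13005707 reads. Tw2pos CPM are thus higher, and Tw2neg CPM lower, than with scaling to the read totals. CPM are given for each Pax7 library, but only as the mean of each Twist2 group. The log2 fold changes computed by the authors were used only to see how that set was chosen. Whole reads were recovered from 100% of the values tried, within 0.01 of a whole number. CPM of the single Twist2 libraries were not given by the authors. They were rebuilt by a least-squares fit of the group means on the recovered reads, with a largest misfit of 3.9e-08 CPM. Main tests were limma 3.58.1 with a variance trend on log2(value + 1) and Benjamini-Hochberg adjustment, with edgeR 4.0.16 and DESeq2 1.42.0 on recovered reads as alternatives. A fold change on this scale understates that of low genes. Current symbols came from RefSeq, gene positions and transcript lengths from GENCODE M21, and promoters from RefSeq on GRCm38.p6. The members and gene lists were chosen with earlier results of these data known. Within a list, genes were named by level and by the largest rise and fall. Other settings changed the pseudocount, filter, scaling, trend, replicate block and libraries. The scripts were tested on simulated data.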

Additional observations from a re-analysis of the deposited data

Results flagged for a closer look

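The labelled against unlabelled difference differed between the Twist2 and the Pax7 line for 9 of the 10 genes, by a limma test of the difference itself on log2(CPM + 1). The values were 8.94 for Postn, 6.56 for Nov, 5.05 for Sparcl1, 4.84 for Wisp2, 4.30 for Sparc, 3.53 for Ctgf, 2.93 for Tnc, 2.86 for Spp1 and 1.92 for Tnxb. The Pax7 line had 1 library a fraction, assumed to vary like the Twist2 libraries. Groups of 4 or more samples, in which a single far sample could be tested, do not exist in this series.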

How the results depend on the processing

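In Tw2pos against Tw2neg, 110 of 130 values of single genes kept their direction and call over 13 alternatives, 19 lost the call and 1 turned sign. All genes called numbered 5470, 2975 in the 6-library fit over the smaller CPM table, and 2578 to 7370 with 1 library left out, when 5 to 9 of the 10 genes were called. Spp1 ranged between −0.39 and 0.13 with 1 library left out. Library total scaling moved the split of all genes to 1607 higher and 5257 lower, against 2645 and 2825, with a median of −0.49 against −0.04, and quantile normalisation to 3213 and 2339, with a median of 0.10. In Tw2pos against Pax7pos, 2853 genes were called (1624 higher, 1229 lower), 1501 at a mean of 50 CPM or more, 1847 after quantile normalisation (852 higher, 995 lower), 2904 with DESeq2 (1330 higher, 1574 lower) and 1635 to 3738 with 1 library left out, when 8 to 10 of the 10 genes were called. In Tw2neg against Pax7neg, 11 genes were called, 1 with a pseudocount of 10, 3 with no filter, 18 at a mean of 50 CPM or more, 1 after quantile normalisation, and 43 to 1038 with 1 library left out, when 1 to 7 of the 10 genes were called. After quantile normalisation Sparcl1 was at 0.049 and Cyr61 at 0.26 there. With 1 library left out Tnxb ranged between −0.30 and 0.38, Sparcl1 between −1.05 and 0.17, Cyr61 between −0.62 and 0.53 and Nov between −0.32 and 0.074. The difference between the lines passed for 1736 genes, 979 at a mean of 50 CPM or more, 958 after quantile normalisation and 935 to 3106 with 1 library left out, when 8 to 10 of the 10 genes passed. The 6-library fit and the filter at 50 CPM tested fewer genes; for the other changes the cause was not tested. Count tests were not run for comparisons with Pax7neg, whose lowest value is 5 reads.

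The Twist2 groups share replicate numbers, but the 2 pairs do not show that the numbers pair the samples (r = 0.26 over 14155 genes). With the replicate block, 303 genes and 3 of the 10 genes (Postn, Tnc and Wisp2) were called in Tw2neg against Pax7neg, and the block changed no call of the 10 genes in the other comparisons.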
